A study of Mus musculus with 12 samples.

Results

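The window between 6 h and 24 h after tetracycline (Tc) was added to 2TS22C cells was examined by setting the 2 arrays labelled 24 h against the 2 labelled 6 h, 4 of the 12 arrays of a time course. 2TS22C is a mouse embryonic stem cell line that the labels describe as an inducible Sox2 knockout, in which Tc withdraws the transcription factor Sox2. All cultures, the controls included, carried this modification and grew in GMEM medium with the cytokine LIF, in air with 5% CO2. The groups were untreated cells (0 h, 2 arrays) and cells harvested 3 h (1 array), 6 h (2), 12 h (1), 24 h (2), 48 h (1), 72 h (2) and 96 h (1) after Tc was added. Array titles mark all times from 3 h on as Tet(+), whereas the description field marks every sample as Tet(-). The time in the title was used for grouping. The labels name 1 line and do not say whether the 2 arrays of a time came from separate cultures, so the p-values below measure no more than how far these samples varied, which may be a technical spread.

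Sox2 is a DNA-binding protein of embryonic stem cells that acts with the POU factor Pou5f1 at joint binding elements near many genes of the pluripotent state. Through these elements the factors also sustain their own genes. Mouse embryonic stem cells deprived of Sox2 are known to leave the pluripotent state and to take on features of trophectoderm, the outer layer of the early embryo.

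On every array the sample RNA carried the dye Cy3, and a reference RNA pooled from 11 mouse cell lines carried Cy5, with no dye swap. Values are log2 ratios of sample over reference per probe, normalized within each array for the balance of the dyes at each brightness, so a ratio of 0 means that a probe lies on that balance and not that both channels had the same raw signal. Ratios of different probes are not levels that can be set against each other. Each probe is a 60-base oligonucleotide. Of 42006 non-control probes, 41754 were well above background in Cy3 on at least 2 arrays, and 41738 could be tested between 24 h and 6 h. The files repeat the probe name in place of a gene name, so Sox2 itself, the markers of embryonic stem cells and the 20 gene lists drawn up (among them pluripotency, trophectoderm and primitive endoderm) could not be read out. The labelled cell type and the loss of Sox2 were therefore not checked here, and counts below are of probes. More than one probe can read a gene.

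Per the file headers, image analysis of the arrays of 0 to 12 h was run on one day and that of the arrays of 24 to 96 h on another. Both 6 h arrays thus belong to the first day and both 24 h arrays to the second, and day and time cannot be told apart between them. The 12 h array was read on the first day with the 6 h arrays. It serves below as a check of direction inside that day. Median Cy3 signal net of background was 96.9 and 118 for the 6 h arrays, 115 for the 12 h array, and 122 and 165 for the 24 h arrays. Median net Cy5 signal was 229 and 243 for 6 h, 261 for 12 h, and 334 and 396 for 24 h, so the arrays of the second day were brighter, above all in the reference channel. The part of this brightness in the results was not tested.

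The probes that changed most are shown here by the first 30 of their 60 bases, 5′ to 3′, as given in the scanner files, because no gene name was at hand for them. They are the pair with the largest rises and the pair with the largest falls between 6 h and 24 h. Capitals in the falling pair mark the bases that follow the 22 bases both probes begin with.
Z00022566-1 (rose): caagctcgtgagtaaagactctctagaggg
Z00064311-1 (rose): tctgacttattgggagaaaagacaagtgtt
Z00004931-1 (fell): ggggggtcacatcttgtatataACCCTGCT
Z00034455-1 (fell): ggggggtcacatcttgtatataTAACCCTG
The 2 falling probes differ in the length of a run of ta repeats and share a stretch of 42 bases, from base 17 of Z00004931-1 and from base 19 of Z00034455-1. They are not counted as separate pieces of evidence. The 2 rising probes shared no stretch of 30 bases with another probe.

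Between the 6 h and 24 h arrays, which were read on different days, many probes differed a little and a small number were steeply lower at 24 h. Of the 41738 probes, 6577 (15.8%) differed at an adjusted p under 0.05 with limma's moderated test and Benjamini-Hochberg adjustment, and these are the probes said below to have risen or fallen. At 24 h, 3997 were higher (9.58%) and 2580 were lower (6.18%). Rises were the more frequent, but falls reached further. The rises had a median of 0.26 on the log2 scale, and 93.6% of them were smaller than 1.5-fold. The falls had a median of −0.30, and 83.4% were smaller than 1.5-fold. The median change over all probes tested was 0.0089 and the median SE was 0.050. Rises made up 60.8% of these calls, but 30.9% of the 2830 calls made on Cy3 alone. Leaving out the first 24 h array gave 3961 calls, and leaving out the second 6 h array 3873.

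Among the probes that changed at least 2-fold, falls outnumbered rises. The 2-fold rises were 27 probes (0.0647% of those tested) and the 2-fold falls 141 (0.338%). No rise and 17 falls reached 4-fold. The largest rise was 1.51 and the largest fall −2.80 on the log2 scale. In all 168 probes the Cy3 signal was well above background on each of the 4 arrays, and the 24 h arrays lay beyond both 6 h arrays in each of them. The call compared these same arrays, so the separation follows from it and is no further evidence. It held in 3973 of the 3997 called rises and 2565 of the 2580 called falls, the other 24 and 15 lacking an array. Over all probes tested, the pairs of arrays did not overlap in 13080 probes that were higher at 24 h (31.3%) and 9815 that were lower (23.5%). The numbers moved with the background correction, from 8 rises and 48 falls with none to 51 rises and 254 falls with a normexp offset of 0, and falls outnumbered rises in every setting run. The 2-fold limit cut through a continuous range. The smallest 2-fold rise was 1.01 and the next called probe outside was 0.99, and the corresponding falls were −1.0004 and −0.997.

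**Figure D1:**
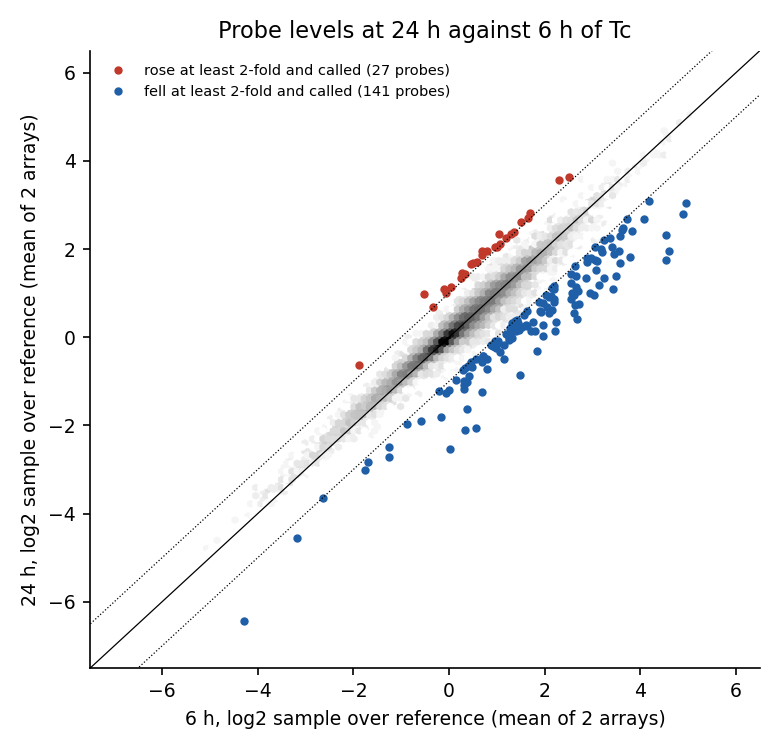
Mean log2 ratio of sample over reference at 24 h (2 arrays, vertical axis) against that at 6 h (2 arrays, horizontal axis), 1 point per probe tested, as grey density. The solid line marks equal ratios and the dotted lines 2-fold changes. Red marks the 27 probes that rose and blue the 141 that fell at least 2-fold. Most points of both colours lie at ratios above 0 at 6 h.

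The replicate arrays set the scale for these changes. The median SD between the 2 arrays of a time was 0.034 at 6 h and 0.036 at 24 h. Across probes, the 6 h arrays correlated with each other at r = 0.994 and the 24 h arrays at 0.994. The 12 h array correlated with the 6 h arrays at 0.990 and 0.989 and with the 24 h arrays at 0.982 and 0.983. Between the 6 h and 24 h arrays r was 0.968 to 0.973. These are correlations across probes that share 1 reference RNA and 1 array design. Probes are not independent replicates, and the values describe the arrays only. The order placed the 12 h array between the others, closer to 6 h, with which it shares the image analysis day.

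The 2-fold falling probes mostly had ratios above 0 before they fell. At 6 h, 129 of the 141 (91.5%) had a ratio above 0, against 47.1% of all probes tested. This was not particular to the falls, since 22 of the 27 probes that rose 2-fold (81.5%) had one too. A log2 ratio of at least 2 was found in 61 of the 141 falling probes (43.3%), against 2.35% of all probes. The 6 h arrays entered the comparison that chose these probes, so that share was partly set by the choice. The 0 h arrays did not, apart from their part in the estimate of the spread. On those 2 arrays the median ratio of the 141 was 1.69 and 1.66. Of all 979 probes with a log2 ratio of at least 2 at 6 h, 302 fell (30.8%) and 118 rose (12.1%), against 6.18% and 9.58% of all probes tested. These 979 were chosen on the 6 h arrays, so their shares too were partly set by the choice.

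The median ratio of the 141 falling probes was similar from 0 h to 6 h, lower at 12 h and lowest from 24 h on, while single probes and classes differed. It was 1.80 on the 3 h array and 1.69 and 1.71 on the 6 h arrays. It was 1.09 on the 12 h array and 0.31 and 0.33 on the 24 h arrays. Later medians lay between 0.19 and 0.24. The 24 h and later medians all lay below every median of 0 to 12 h.

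The median ratio of the 27 rising probes was higher at 12 h and 24 h than before and lay lower again on the later arrays, although 6 of the 27 went further by 72 h. It was 0.52 and 0.50 on the untreated arrays, 0.55 on the 3 h array and 0.70 and 0.71 on those of 6 h. It reached 1.22 on the 12 h array and 1.94 and 1.96 on the 24 h arrays. It was 1.69 on the 48 h array and 1.43 to 1.51 on the 3 after it. None of the later medians reached those of the 24 h arrays. The 24 h arrays entered the comparison that chose these probes, so their lead over the later arrays was partly set by the choice.

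**Figure D2:**
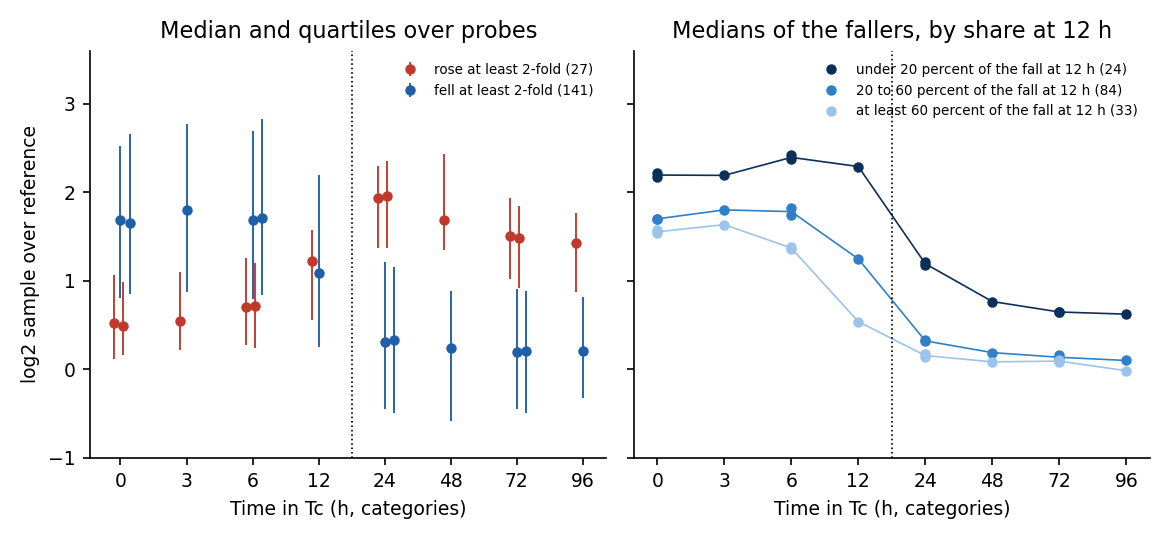
Left, median (points) and quartiles (lines) of log2 sample over reference on each of the 12 arrays, by time in Tc, for the 27 probes that rose and the 141 that fell at least 2-fold between 6 h and 24 h. Right, medians of the 141 falling probes in 3 classes by the share of their fall reached on the 12 h array, 1 point per array and lines through the time means. The dotted line separates the 2 image analysis days. The 24 probes with under 20% of the fall at 12 h were still near their 6 h ratio on the 12 h array, and the 33 with at least 60% were lower there.

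In each called set, most probes had moved in the direction of the call on the 12 h array, which was read on the same day as the 6 h arrays. Of the 3988 rising probes with a value at 12 h, 3205 (80.4%) lay above both 6 h arrays and 288 (7.22%) below both. Of 2574 falling probes, 2040 (79.3%) lay below both 6 h arrays and 266 (10.3%) above both. Over all probes tested, 39.1% lay above both and 31.4% below both. Every one of the 27 probes that rose 2-fold lay above both 6 h arrays at 12 h, and 134 of the 141 that fell 2-fold lay below both. This check and the call share the 6 h arrays.

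Against the 0 h and 3 h arrays, which the call did not compare, the 12 h array gave the same direction less uniformly. The 12 h array lay on the side of the call in 78.0% of the rising probes and 72.5% of the falling ones, where 52.3% of all probes tested were higher and 47.7% lower. It did so in 27 of the 27 probes that rose 2-fold and in 124 of the 141 that fell 2-fold (87.9%). All of these arrays were read on the first day.

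As tests of their own, the comparisons with the single 12 h array called fewer probes. Its spread was taken from the replicated times. Between 12 h and 6 h, 602 of 41665 probes were called (1.44%), 230 higher (0.552%) and 372 lower (0.893%). Higher probes were 38.2% of these calls, 25.8% with a normexp offset of 0 and 7.5% on Cy3 alone. Leaving out the first or the second 6 h array gave 303 and 298 calls. Between 12 h and the 0 h and 3 h arrays, 2366 of 41623 were called (5.68%), 1239 higher (2.98%) and 1127 lower (2.71%). Leaving out the first or the second 0 h array gave 1540 and 1525 calls. The second comparison called 26 of the 27 probes that rose 2-fold by 24 h and 105 of the 141 that fell, in the same direction, and 1 of the 141 in the other. Of all 24 h calls it held 663 of the rises (16.6% of them, and 53.5% of its own rises) and 662 of the falls (25.7%, and 58.7% of its own falls). In the opposite direction it held 30 of the 3997 rises and 110 of the 2580 falls, where it called 2.71% of all probes lower and 2.98% higher.

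**Figure D3:**
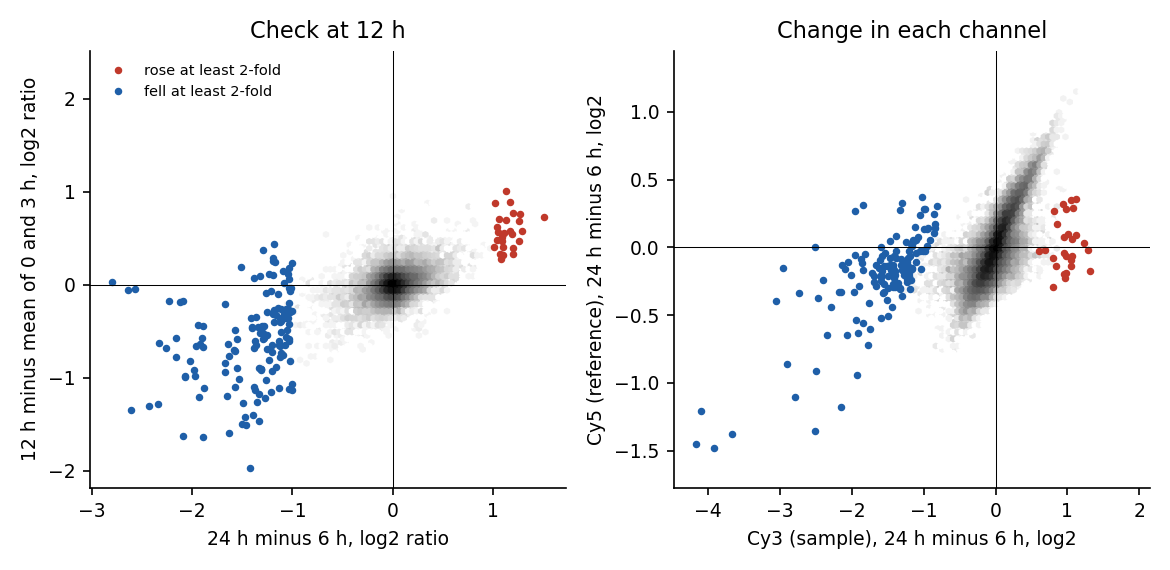
Left, log2 difference of the 12 h array from the mean of the 0 h and 3 h arrays (vertical) against the change from 6 h to 24 h (horizontal), 1 point per probe tested as grey density, with the 27 probes that rose (red) and the 141 that fell (blue) at least 2-fold. All red points lie above 0 on the vertical axis and 124 of the blue ones below. Right, change from 6 h to 24 h in the reference channel Cy5 (vertical) against that in the sample channel Cy3 (horizontal), both log2 and normalized by quantiles between arrays. The blue points lie at negative Cy3 changes, and the lowest Cy5 change among them is −1.48.

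The falls differed in how much of the change had been reached on the first day. At 12 h the 2-fold falling probes had covered a median of 41.1% of the log2 difference between 6 h and 24 h (quartiles 28.8% and 58.2%), and the 2-fold rising probes 36.2% (31.3% and 44.4%). Of the falling probes, 33 had covered at least 60%, 84 between 20% and 60%, and 24 under 20%. In the first of these classes the median ratio went from 1.38 and 1.36 on the 6 h arrays through 0.54 on the 12 h array to 0.14 and 0.17 on those of 24 h. In the class under 20% the 12 h array, at 2.29, was close to the 6 h arrays (2.42 and 2.37), and the 24 h arrays gave 1.21 and 1.17. For these 24 probes most of the fall in the ratio lies between the 12 h and 24 h arrays, and so does the change of day. The sample signal need not have waited as long. In 8 of the 24 the Cy5 signal was lower by at least 0.5 at 24 h. At rank 9 among the falls, net Cy3 was 63892.5 and 62079 at 6 h and 29889 at 12 h. Its net Cy5 went from 4089 and 3923 to 2597. On the 0 h and 3 h arrays the net Cy3 of this probe was 65154, 64575 and 65157. It was flagged as saturated on 0 of the 6 h and 24 h arrays. Whether the scanner's range limited the early signal, and so the ratio, was not tested. At rank 12, net Cy3 went from 30383 and 23179 to 10692. Only 1 of the 24 was called lower at 12 h than at 6 h, compared with 32 of the 33 in the class of at least 60%. The difference of 12 h from 6 h itself defines the classes, so these counts and the 12 h medians were largely set by the choice. The classes were drawn with the values in view, and their differences are a description.

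Z00004931-1 had the largest fall. Its log2 ratio was 4.22 and 4.42 on the untreated arrays, then 4.43 (3 h), 4.49 and 4.59 (both 6 h arrays) and 4.39 (12 h). On both 24 h arrays it was 1.75. The later arrays gave 1.42 (48 h), 1.63 and 1.11 (72 h) and 0.57 (96 h). All 6 arrays of the first day were above 4 and all 6 of the second below 2. The change from 6 h to 24 h was −2.80 (SE 0.13, adjusted p = 6.14e-07, limma). At 12 h it differed from 6 h by −0.15 (adjusted p = 0.872).

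Z00034455-1, which shares most of its sequence with it, followed the same course. It read 4.55 and 4.65 on the 6 h arrays, 4.32 on the 12 h array, and 1.90 and 2.02 on the 24 h arrays. The fall was −2.64 (SE 0.08, adjusted p = 4e-08, limma), and the 12 h array differed from 6 h by −0.28 (adjusted p = 0.325). For both probes the signal in the reference channel, where the same RNA was used on every array, fell as well. The log2 change in Cy3 alone was −4.09 for Z00004931-1 and −4.17 for Z00034455-1, and in Cy5 alone it was −1.21 and −1.45. The part of the reference channel in these 2 falls was not tested.

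The probe at rank 3 among the falls moved within the first day. Its ratio was 0.57 and 0.55 on the 6 h arrays, −0.51 on the 12 h array and −2.05 on both 24 h arrays, a change of −2.61 (SE 0.04, adjusted p = 2.55e-09, limma). The 12 h array already differed from 6 h by −1.07 (adjusted p = 2.85e-05). Its Cy5 signal changed by −0.39 and its Cy3 signal by −3.05. The probe at rank 4 did not share that course. Its 6 h arrays read 0.0010 and 0.038, the 12 h array −0.10 and the 24 h arrays −2.48 and −2.61. Its 12 h array differed from 6 h by −0.12 (adjusted p = 0.572, limma), and the change by 24 h was −2.56. Here the net Cy3 intensity was 3576 and 3852 on the 6 h arrays, 3353 on the 12 h array and 530.3 and 429.6 on the 24 h arrays. The net Cy5 intensity was 5997 and 6602 at 6 h, and 7125 and 7127 by 24 h. These net values are not adjusted for the brighter arrays of the second day. Normalized as for the other probes, the change was −2.95 in Cy3 and −0.15 in Cy5, so in that probe the fall was mostly in the sample channel.

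Z00022566-1 had the largest rise. Its ratio was −0.57 and −0.52 on the untreated arrays, −0.59 on the 3 h array, −0.55 and −0.49 on the 6 h arrays and 0.17 on the 12 h array. The 24 h arrays reached 1.03 and 0.94. Afterwards it stood at 0.59 (48 h), 0.39 and 0.29 (72 h) and 0.12 (96 h). The change from 6 h to 24 h was 1.51 (SE 0.05, adjusted p = 8.51e-08, limma), and the 12 h array was already above 6 h by 0.69 (adjusted p = 0.000555). With no background correction the rise was 0.88. The 24 h arrays were the highest of the 12, which was partly set by the choice of the probe for its value at 24 h.

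Z00064311-1 also rose but went on to higher values. Untreated cells read 0.91 and 0.86, followed by 0.93 (3 h), 1.08 and 1.01 (6 h), 1.48 (12 h) and 2.26 and 2.42 (24 h). The 4 later arrays gave 2.93 to 3.32, all above both 24 h arrays. The rise from 6 h to 24 h was 1.29 (SE 0.07, adjusted p = 1.57e-06, limma), and 12 h stood 0.44 above 6 h (adjusted p = 0.0402). With no background correction the rise was 0.78. In Cy5 alone the changes of the 2 rising probes were −0.17 and 0.09, against 1.31 and 1.13 in Cy3.

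**Figure D4:**
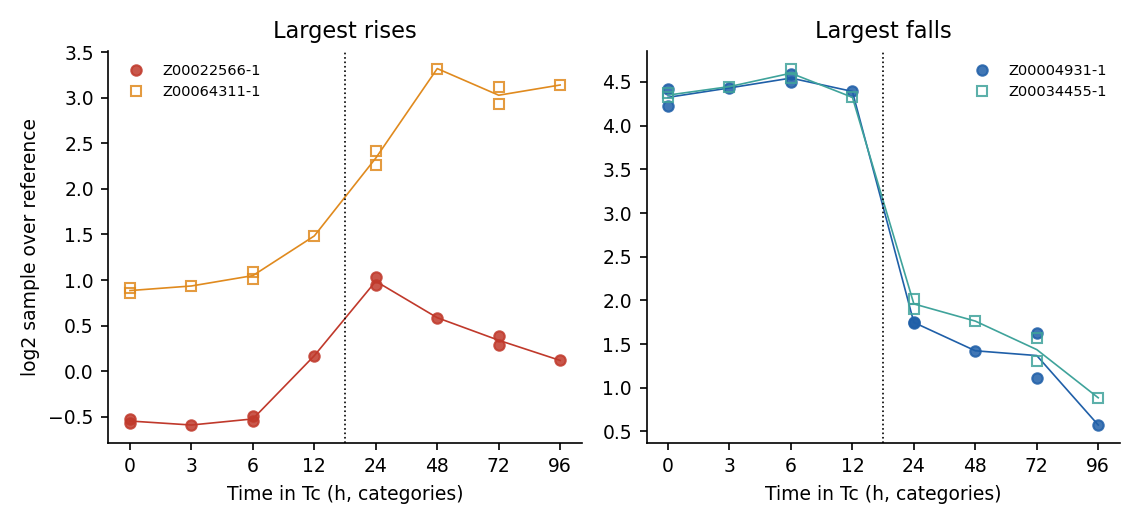
Log2 sample over reference of the 2 probes with the largest rises (left) and the 2 with the largest falls (right) on each of the 12 arrays, by time in Tc. Symbols are arrays, lines run through the time means, and the dotted line separates the image analysis days. The rising probes are already higher at 12 h, and the falling ones leave values above 4 only between 12 h and 24 h.

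Of the 15 largest falls, ranging from −2.80 to −2.07, the 12 h array differed from 6 h in the same direction in 9 by the same test. Of the 15 largest rises, ranging from 1.51 to 1.10, it did so in 11. Among the 15 falls, the probes ranked 1, 2, 9, 12 and 13 had Cy5 changes between −0.86 and −1.48 and no call at 12 h.

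Read by channel, the probes that changed 2-fold were also called in the sample channel alone, though not always at that size. Each of the 27 rises and 141 falls was called in the same direction in Cy3 alone. Cy3 is the numerator of the ratio that chose these probes, on the same arrays and days, so this was largely set by the choice. In Cy3 alone 2830 probes were called (6.78% of those tested), 874 higher (2.09%) and 1956 lower (4.69%). The Cy3 change reached 2-fold in 12 of the 27 and in 128 of the 141. The median Cy3 change was 0.98 for the 27 and −1.44 for the 141, beside median Cy5 changes of −0.019 and −0.16. In Cy5 alone limma called 1 probe (0.0024%), which was lower, and 7940 of the 41738 probes tested had an unadjusted p under 0.05. The single call therefore does not show that the reference channel was unchanged.

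The smaller changes held a larger part of reference channel change than the 2-fold ones, in none of which the Cy5 change was the larger. Over all 3997 rises the median change was 0.16 in Cy3 and −0.09 in Cy5, and the Cy5 change was the larger of both in 39.8%, against 56.8% of all probes tested. Over the 2580 falls the medians were −0.39 and −0.09, and the Cy5 change was the larger in 361 of them. In Cy3 alone, 15.4% of the rises and 54.0% of the falls were called in the same direction. Because the 24 h arrays and the 6 h arrays were read on different days, an excess of small rises over small falls cannot be told apart from a day effect.

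A minority of the 2-fold falling probes also lost signal in Cy5. The Cy5 signal of 19 of the 141 (13.5%) was lower by at least 0.5 on the log2 scale at 24 h, compared with 0.683% of all probes tested. These 19 had a median log2 ratio of 3.57 at 6 h, and the other 122 one of 1.44. Their median Cy3 change was −2.16 and their median Cy5 change −0.86. The other 122 had a median Cy3 change of −1.39 and a median Cy5 change of −0.14, so most falls stood with little movement of the reference.

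The later arrays, all read on the second day with those of 24 h, show where the called probes stood afterwards. The same shares over all probes tested were not taken, so the counts describe the called sets only. The 6 h and 24 h arrays chose these sets, so the positions against them were partly set by the choice. Of the 141 probes that fell 2-fold, both 72 h arrays were below both 24 h arrays in 86, between the 24 h and 6 h arrays in 35 and mixed in 20. None was above both 6 h arrays. Of the 27 that rose 2-fold, both 72 h arrays were above both 24 h arrays in 6, between those of 24 h and 6 h in 17, and below both 6 h arrays in 2. In the full called sets, 50.1% of rises and 49.4% of falls had gone further at 72 h, and 10.1% and 10.2% had passed the 6 h arrays in the other direction.

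A few probes could be given a place in the genome. An exact match of all 60 bases to the RefSeq windows around gene starts (250 bases before to 50 after, GRCm38.p6, 32851 windows, both strands) placed 289 probes, 281 of them at 1 position. Of the 280 that were also tested, 16 rose and 5 fell, 7.5% called beside 15.8% of all probes. None changed 2-fold. None of the 398 genes in the 20 lists had such a probe, and the genes below are those at hand, not a choice by function.

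The probe with the largest change among those placed lies inside the span of Slc22a20, a gene of the solute carrier family of organic ion transporters, on its strand at chr19:5970271-5970330, 37 bases before the end of the gene. Its ratio was −0.011 and 0.043 in untreated cells, 0.19 and 0.23 on the 6 h arrays, 0.33 on the 12 h array and 0.86 and 0.92 on those of 24 h. It stayed between 0.74 and 1.03 afterwards. It rose by 0.68 (SE 0.05, adjusted p = 1.46e-05, limma). With no background correction it rose by 0.29. At 12 h the difference from 6 h was 0.12 (adjusted p = 0.577), and that from the 0 h and 3 h arrays was 0.28 (adjusted p = 0.0239).

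The second lies in the span of Mapkbp1, which encodes a protein that binds mitogen-activated protein kinases, at chr2:120027327-120027386 on its strand, 17 bases before the gene's end. The 6 h arrays read −0.64 and −0.68, the 12 h array −0.59, the 24 h arrays −0.036 and −0.10, and the 48 h array 0.36. The rise was 0.59 (SE 0.06, adjusted p = 7.58e-05, limma), and the 12 h array differed from 6 h by 0.07 (adjusted p = 0.851). The difference of 12 h from the 0 h and 3 h arrays was 0.061 (adjusted p = 0.727). Of the called placed probes, those in Slc22a20, Fbxo24 (0.43, adjusted p = 0.0358) and Nabp2 (0.21, adjusted p = 0.0391) differed at 12 h from the 0 h and 3 h arrays in limma.

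The other 19 placed probes moved by 0.15 to 0.35. Slc22a20 and Mapkbp1 kept their call in all 16 alternative settings, and each of the others lost it in at least 1 and at most 11. On the strand of the gene, rises were found in Zbtb22, a zinc finger gene (0.30), Gtf2h4, a subunit of the general transcription factor TFIIH (0.27), Ntng1, a netrin family gene of axon guidance (0.25), Ndufb11 (0.20) and Ndufa9 (0.15), subunits of respiratory complex I, Camta2, a calmodulin-binding transcription activator (0.18), Nme2, a nucleoside diphosphate kinase (0.18), and Nabp2, a single-strand DNA-binding protein (0.17). Lower values were found in the span of the lipid hydrolase gene Abhd6 (−0.16) and in the start windows of Sord, sorbitol dehydrogenase (−0.28), and Hmgb2, a high mobility group protein of chromatin (−0.20). All had an adjusted p between 0.00838 and 0.0428 in limma, and their SE was 0.04 to 0.08. The Hmgb2 probe had a Cy3 change of 0.0022 and a Cy5 change of 0.29 on the log2 scale. In the same way, the Cy3 changes of the probes in Ndufb11 (−0.031) and Camta2 (−0.12) were opposite in sign to their ratios, with Cy5 changes of −0.18 and −0.32.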

How the data were processed

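Mouse RNA was measured on 12 two-colour 60-base oligonucleotide arrays, sample in Cy3 and reference in Cy5 per the labels. Per the file headers, Agilent Feature Extraction 7.5.1 turned the scans into the deposited intensity values of each spot, as mean, background and processed signals. The deposited table of the whole series is on a log10 scale, in the direction sample over reference. The sources used here do not say how its level was set.

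Mean signals of 42034 non-control spots were corrected with normexp (offset 50), and log2 ratios were normalized by loess within arrays (limma 3.58.1, R 4.3.3), control spots having weight 0. Flagged spots (0.0856% to 0.226% per array) were left out, and 39 of the called probes lacked 1 of the 4 arrays or more. The offset shrinks fold changes of dim probes. Cy3 or Cy5 alone was normalized by quantiles between arrays. Probes well above background in Cy3 on at least 2 arrays were kept (252 removed). One fit of the 8 time groups (lmFit and eBayes, 4 residual degrees of freedom) gave 24 h against 6 h, 12 h against 6 h and 12 h against the 0 h and 3 h arrays, with Benjamini-Hochberg adjustment over all probes tested and calls at an adjusted p under 0.05. The fit assumes that times with 1 array vary like the others. The number of arrays limits the precision.

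The rule for named probes took the 2 largest rises and 2 largest falls among called probes whose arrays did not overlap and that were well above background on all 4 arrays. Probes were placed by exact match of 60 bases to RefSeq start windows of GRCm38.p6, using Python 3.11.15 and pandas 2.3.3. None of the 398 genes in 20 lists had a placed probe, so the lists and the check of Sox2, Pou5f1 and Nanog were not run. Samples, lists and tests were chosen with earlier results of these data known, and the placing of probes, the classes by share at 12 h and the checks by channel, sequence and signal were added after seeing the values. Replicate numbers were not taken to pair arrays, since the deviations of the first 6 h and 24 h arrays from their means correlated at r = 0.0969 and the labels give no shared culture. Alternatives were other background corrections, signals, normalizations, filters, thresholds and array sets, and a replicate block.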

Additional observations from a re-analysis of the deposited data

How the results depend on the processing

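The counts of 24 h against 6 h kept falls ahead of rises among 2-fold changes in every setting run. The following values moved beyond their limit, 1.5 times for a count and the binomial interval for a share, and the cause was not tested. That interval treats probes as independent, which they are not. It serves only to sort the shares and measures no spread of arrays or cultures. At an offset of 0 in normexp there were 51 rises and 254 falls of 2-fold, 93 calls for 12 h against 6 h, 1022 for 12 h against 0 and 3 h, and 83.8% of the 24 h calls lay at 12 h beyond both 6 h arrays on the side of the call (79.9% as reported, with 75.9% on that side of the 0 h and 3 h mean). With no background correction there were 8 and 48 2-fold changes and 78.9%. On processed signals there were 4107 calls at 24 h, 43 and 249 of 2-fold, 87 and 996 calls at 12 h, and shares of 82.0% and 77.1%. The deposited table gave 44 and 233, 115 and 1169, and 81.1%. Median centring gave 294 and 1182 calls at 12 h and 81.3%, scale between arrays 77.7% against 0 and 3 h, and array weights 78.9%. Cy3 alone gave 2830 calls at 24 h, 40 and 440 at 12 h, and 83.8% and 69.5%. Fitting only the arrays compared gave 3594 calls for 12 h against 0 and 3 h. At an adjusted p under 0.01 there were 3885, 257 and 1087 calls, with 85.2% and 80.6%, and with the 2-fold limit 168, 20 and 43, with 95.8% and 89.9%. In Cy5 alone 0 probes in place of 1 were called by limma with only the arrays compared, with the replicate block, and without any one array, beside the 7940 at an unadjusted p under 0.05 in the reported fit.

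With the replicate number as a block, 24 h against 6 h had 6573 calls, and 12 h against 6 h 439 in place of 602. Leaving out each array in turn gave 3873 to 4890 calls for 24 h against 6 h, 25 to 32 rises and 138 to 152 falls of 2-fold, 298 to 303 calls for 12 h against 6 h and 1525 to 1540 against 0 and 3 h. The share beyond both remaining 6 h arrays was then 82.5% to 91.8%, and the share on the side of the call against 0 and 3 h 75.6% to 80.7%. The 4 named probes kept direction and call in all 64 values, but with no background correction the rise of Z00022566-1 was 0.88 and that of Z00064311-1 0.78, under 2-fold. The 21 placed probes did so in 203 of 335, lost the call in 127 and reversed in 5, all on Cy3 alone, where Fbxo24 gave −0.029, Myo3b −0.080, Ndufb11 −0.031, Camta2 −0.12 and Hmgb2 0.0022. Tests of the gene lists were not run for want of probe names. Aquantile between arrays was not run, because it leaves log ratios as they are, and scale was run in its place. The dimmest class of probes by signal had fewer calls, at a median SE of 0.053 beside 0.048 in the brightest, and the cause was not tested.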

Other observations

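Brighter probes were called more often. Ranked by mean log2 signal, and divided into 4 equal classes, 2.68% of the dimmest class rose and 3.16% fell, compared with 19.1% and 7.73% of the brightest class. The 2-fold falls were 11, 35, 55 and 40 from the dimmest to the brightest class, and the 2-fold rises 5, 11, 5 and 6. The median SE ranged from 0.053 in the dimmest class to 0.048 in the brightest.

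Probes of overlapping sequence gave like values. Among 764 pairs of probes that share at least 30 bases, the median absolute difference of their changes from 6 h to 24 h was 0.048 on the log2 scale. In 222 pairs at least 1 probe was called, and both had the same sign in 213. Both were called in 143, with the same sign in 143. Of 70 pairs in which a probe shared 30 bases with the reverse complement of another, 17 had a call and 14 of these had the same sign.

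The poly(A) signal hexamers AATAAA or ATTAAA, searched on the probe's own strand, occurred in 9.68% of all probes tested, in 17.1% of those that rose and 11.7% of those that fell. In the brightest class the shares were 14.1%, 20.7% and 14.5%. The hexamer was in 6 of the 27 probes that rose 2-fold and 24 of the 141 that fell 2-fold. Median GC content was 43.3% over all probes tested, 41.7% in both called sets and 40.0% among the 2-fold falls.

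At the edge of detection, 9 probes were well above background in Cy3 on both 6 h arrays and on neither 24 h array, and 2 showed the reverse.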
